A study of Rattus norvegicus with 5 samples.

Results

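The genes described are those for the subunits of the proteasome, the barrel-shaped protease that breaks down ubiquitin-tagged proteins, and for its assembly chaperones and activators, in cultured rat vascular smooth muscle cells. They were chosen by name: every row whose symbol begins with Psma, Psmb, Psmc, Psmd, Psme, Psmf or Psmg followed by a number and whose value was above 0 in at least 1 library. This gave 47 genes among 17048 rows, of which 13397 were detected. They fall into 14 standard core particle genes, 3 immunoproteasome genes, 2 tissue-restricted core genes and 17 regulatory particle genes. The remaining genes encode 3 regulatory particle chaperones, 3 core particle chaperones, 4 activators and 1 inhibitor.

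RNA-seq was done on 5 libraries of vascular smooth muscle cells, which contract the vessel wall, with 1 library per condition. The groups were cells given In-Cl (0.1 µM) ahead of 24 h of hypoxia, cells given DPN (0.1 µM) ahead of 24 h of hypoxia, cells given E2 (10 nM) ahead of 24 h of hypoxia, cells kept in hypoxia for 24 h with no compound named, and a control. In-Cl is an indazole by the title of the series, DPN (diarylpropionitrile) is an agonist that prefers estrogen receptor beta, and E2 is estradiol, the steroid hormone. All cells were grown in DMEM/F12 medium on coated plastic. The vessel of origin, the oxygen level, the vehicle and the number of cultures behind a library are not given in the labels.

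With 1 library per condition there was no replicate check, no p-value could be given, and every statement below compares libraries. Levels are given in adjusted reads, the deposited log2 value turned back to a linear scale with the added 1 removed. A difference is the deposited log2 value of a library minus that of the library it is set against (hypoxia minus control, a compound minus hypoxia or control, In-Cl minus DPN). Its 95% interval comes from approximate read numbers (exact Clopper-Pearson) and covers counting error only, since reads counted without molecular identifiers cannot stand for separate molecules. Libraries held between 20156004 (E2) and 24836162 (control) approximate reads. The rows tested are the upper 50% of detected rows by mean level, 6699 in all, and include 39 of the 47 genes. A gene was counted as lower or higher at a 1.2-fold difference (0.26 on the log2 scale). Gene lengths were not used, so levels are compared between libraries for 1 gene and not between genes.

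The proteasome consists of a core particle and a cap. The core is a stack of rings of alpha and beta subunits, and its protease sites lie on the beta subunits encoded by Psmb5, Psmb6 and Psmb7. The cap, or regulatory particle, recognises ubiquitin chains, removes them and uses ATPases (Psmc genes) to unfold the protein and feed it into the core. Under interferon the catalytic subunits can be replaced by those of Psmb8, Psmb9 and Psmb10, which form the immunoproteasome and favour peptides for antigen presentation. In cells with enough oxygen, proteasomes degrade the alpha subunits of the hypoxia-inducible factors once the VHL ligase has marked them.

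The labels were checked against marker genes. Egln3, a hydroxylase gene induced through hypoxia-inducible factors, had 1015, 1032, 1011 and 1059 adjusted reads in the In-Cl, DPN, E2 and hypoxia libraries, against 29.4 in the control. All 8 smooth muscle markers were detected, and their summed level was 199232, 216007, 258402 and 272761 in those 4 libraries and 232968 in the control. In hypoxia alone 5 of them were higher than in the control and 3 lower, with Smtn lowest at 2206 against 4374. Of the leukocyte markers with a row, 4 of 9 (Itgam, Cd3e, Laptm5, Cd52) were at 0 in every library. The list summed to 214.3 to 271.4 in the hypoxic libraries and 220.1 in the control. In hypoxia alone 3 of the 5 detected were higher than in the control and 2 lower. Cd14 led the list, at 157 in hypoxia and 184.6 in the control, and Csf1r had 34 against 14.6 (interval 0.32 to 2.10). Of the endothelial markers, 3 of 7 (Cdh5, Kdr, Emcn) were at 0 in every library. The list summed to 542.5 to 665.2 in the hypoxic libraries and 456.6 in the control. In hypoxia alone 3 of the 4 detected were higher than in the control and 1 lower. Tek led the list, at 369.7 in hypoxia and 244.2 in the control (interval 0.37 to 0.82). All 6 fibroblast markers were detected, led by Col1a1, and summed to 285620, 264968, 263873 and 285102 in the hypoxic libraries in the same order and 228976 in the control. Nearly all of the sum was Col1a1, at 284288 in hypoxia and 227577 in the control. Dcn and Fap reached no more than 14.4 and 2.66 in any library. In hypoxia alone 4 of the 6 were higher than in the control and 2 lower, with Lum lowest at 590.8 against 1214. The part of these other cell types in the results below was not tested.

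Most proteasome genes were lower in the hypoxia library than in the control, with the lowest group medians, over the rows tested, in the activators and the regulatory particle. Of the 39 genes in the rows tested, 22 were at least 1.2-fold lower and 0 were higher, where 21.9% of all rows tested were lower and 15.7% higher. Their median difference was -0.29 (-18.0%), with an interval over genes of -0.38 to -0.21, beside -0.05 over all rows tested. Here and below, an interval over genes is a 95% order-statistic interval of the median that takes genes as separate draws. It does not cover the spread between cultures. By direction 37 of 39 lay below 0, against 56.2% of all rows. The counting interval lay wholly below 0 for 30 of the 39 genes, against 39.1% of all rows, and wholly above 0 for 1 gene, against 28.7%. Over these 39 genes the differences were small: they ran from -0.56 to 0.07 with an interquartile range of 0.25, beside 0.39 over all rows. At 1.5-fold 0 of the 39 were lower, against 3.39% of all rows, a share so small that the 0 says little. Over all 47 genes, those of low counts included, the differences ran wider, from -1.03 (Psmb9) to 0.84 (Psmb11). Summed over all 47 genes the level was 90367 adjusted reads in hypoxia and 108635 in the control, or 0.396% and 0.526% of each library's sum. Fewer cells of a type and less RNA per cell cannot be told apart in these bulk libraries. When libraries were scaled to equal totals, the median over all rows tested shifted to -0.19, with 39.5% lower and 8.24% higher, and the median over the proteasome genes shifted to -0.43.

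**Figure D1:**
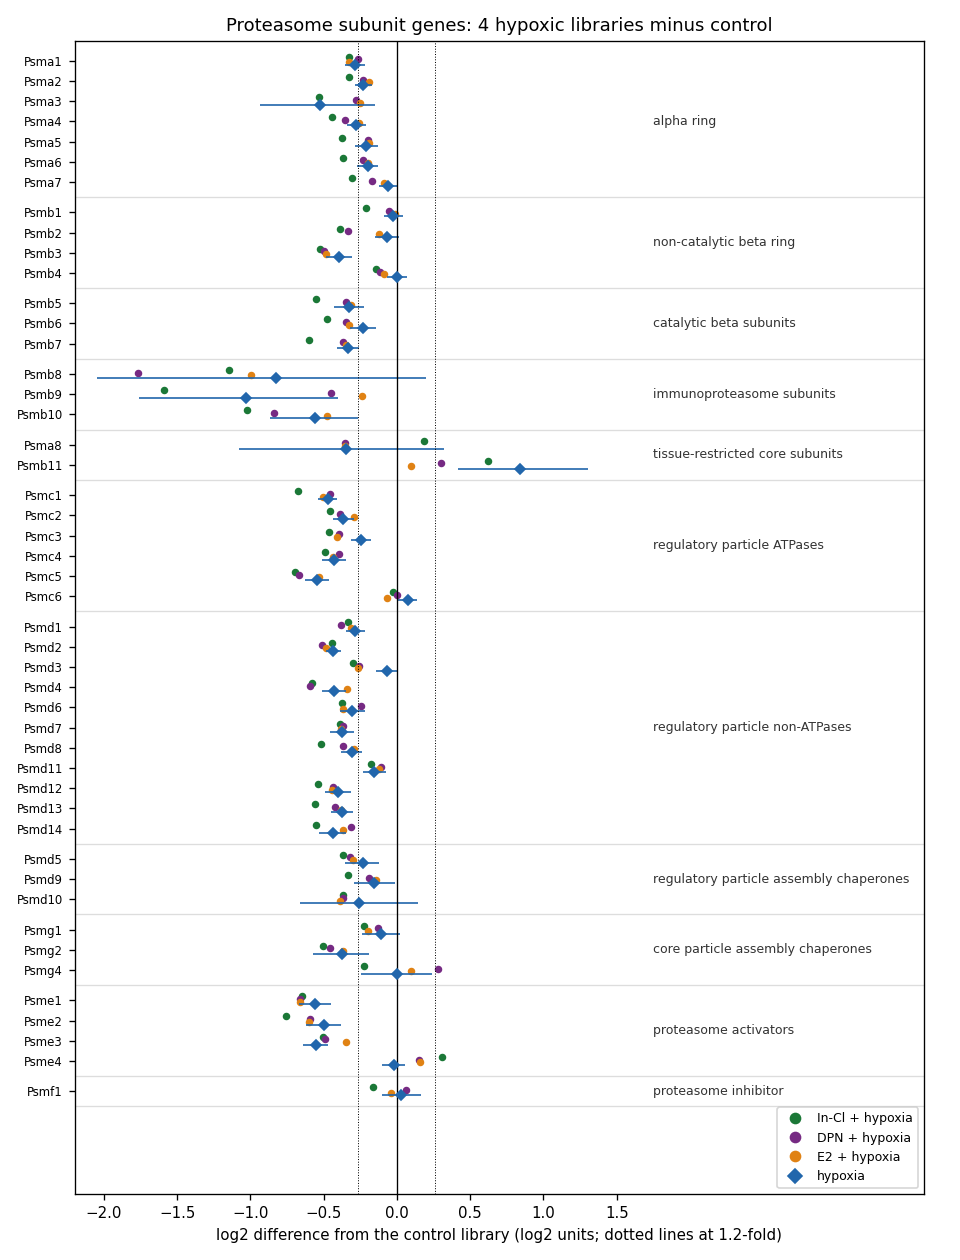
Log2 difference of each of the 47 proteasome genes from the control library in the In-Cl, DPN, E2 and hypoxia libraries, grouped by role; bars on the hypoxia diamonds are 95% counting intervals and dotted lines mark 1.2-fold. Most symbols lie left of 0, Psmc6, Psmb4 and Psmf1 lie near it in hypoxia, and the low-count genes Psmb8, Psma8 and Psmb9 have the widest bars.

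The alpha ring, whose subunits gate the entrance to the core, was modestly lower in hypoxia. Its 6 genes in the rows tested differed by -0.06 (Psma7) to -0.29 (Psma1), with a median of -0.22, and Psma1 and Psma4 passed 1.2-fold. Psma1 had 2804, 2926, 2806 and 2885 adjusted reads with In-Cl, DPN, E2 and hypoxia alone, against 3518 in the control. Psma4 had 2832, 3020, 3226 and 3184, against 3858 in the control. Psma2, Psma5 and Psma6 differed by -0.23, -0.21 and -0.20 in hypoxia, each with an interval below 0. For these genes all 4 hypoxic libraries lay below the control. Psma7 had 3142, 3453, 3650 and 3724, against 3885 in the control, with hypoxia alone the nearest to the control and In-Cl the farthest. The level of Psma3 is uncertain. Its row held 88.8, 106, 107.7 and 88.9 adjusted reads in the In-Cl, DPN, E2 and hypoxia libraries and 128.6 in the control, while a neighbouring row named Psma3l, a symbol that RefSeq lists as a synonym of Psma3, held 2826 in hypoxia and 3936 in the control. Both rows were lower in hypoxia, by -0.53 for Psma3 and -0.48 for Psma3l.

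Among the structural beta subunits, which complete the inner rings without a protease site, the hypoxia library differed little from the control except for Psmb3. Psmb4 had 2773, 2820, 2877 and 3054 adjusted reads with In-Cl, DPN, E2 and hypoxia alone, against 3056 in the control. Its hypoxia and control levels were nearly equal, a difference of -0.001 with an interval of -0.07 to 0.07. Psmb1 (-0.03) and Psmb2 (-0.07) also had intervals that included 0. Psmb3 had 1730 adjusted reads in hypoxia and 2271 in the control, a difference of -0.39, and was the gene of this group past 1.2-fold.

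The catalytic subunits of the constitutive core were lower in all 4 hypoxic libraries than in the control, with In-Cl lowest. Psmb5, the chymotrypsin-like subunit, had 1169, 1353, 1383 and 1371 adjusted reads with In-Cl, DPN, E2 and hypoxia alone, against 1718 in the control. Psmb6, the caspase-like subunit, had 1496, 1638, 1657 and 1776, against 2081 in the control. Psmb7, the trypsin-like subunit, had 2112, 2482, 2524 and 2541, against 3206 in the control. The hypoxia library's differences from the control were -0.33 for Psmb5, -0.23 for Psmb6 and -0.34 for Psmb7, so Psmb5 and Psmb7 passed 1.2-fold and Psmb6 did not. None of their counting intervals reached 0.

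The promoters of Psmb5 and Psmb6 are shown because both hold the core letters of an antioxidant response element (TGACNNNGC), the kind of site through which the transcription factor Nfe2l1 raises proteasome genes when proteasome activity is short. Each is the 200 bases before the gene start in RefSeq's GRCr8 assembly, read 5' to 3' on the gene's strand (chr15:32047380-32047579, minus strand, and chr10:55737688-55737887, plus strand). Capitals mark any motif of the search described further down, here TGACNNNGC and, in Psmb5, GCGTG.
Psmb5: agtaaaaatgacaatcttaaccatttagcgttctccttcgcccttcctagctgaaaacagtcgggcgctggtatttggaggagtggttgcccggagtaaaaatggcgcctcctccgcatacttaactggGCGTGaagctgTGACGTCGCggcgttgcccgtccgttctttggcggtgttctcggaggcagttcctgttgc
Psmb6: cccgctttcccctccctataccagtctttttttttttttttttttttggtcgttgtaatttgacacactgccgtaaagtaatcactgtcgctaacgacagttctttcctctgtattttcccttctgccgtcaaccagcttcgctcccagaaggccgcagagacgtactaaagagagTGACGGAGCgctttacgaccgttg
The match lies 60 to 52 bases before the gene start in Psmb5 and 24 to 16 bases before it in Psmb6. A match of letters is a description and not a bound site. Such a match was held by 16.7% of the members searched, against 13% of the promoters of the rows tested, and Psmb7 held none.

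The immunoproteasome genes were at low counts and were also lower in hypoxia. Psmb8, the counterpart of Psmb5, had 8.86, 5.43, 9.96 and 11.4 adjusted reads with In-Cl, DPN, E2 and hypoxia alone, against 20.9 in the control. Psmb9, the counterpart of Psmb6, had 18.7, 42.4, 49.2 and 28, against 58.1 in the control. Psmb10, the counterpart of Psmb7, had 106.5, 121, 156 and 147.7, against 217.7 in the control. The control held the highest level of each, and the lowest was in the DPN library for Psmb8 and in the In-Cl library for Psmb9 and Psmb10. The hypoxia library differed from the control by -0.82 for Psmb8 (interval -2.04 to 0.20), -1.03 for Psmb9 (-1.76 to -0.40) and -0.56 for Psmb10 (-0.87 to -0.26). Psmb8 rests on 11 approximate reads in hypoxia and 25 in the control, so its difference was not detectable at this depth. All 3 lie outside the rows tested.

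Set against its constitutive counterpart, Psmb9 had a lower share in the hypoxia and In-Cl libraries than in the control. With DPN and E2 its share was near the control. The ratio of Psmb9 to Psmb6 was 1.25% with In-Cl, 2.58% with DPN, 2.97% with E2 and 1.58% in hypoxia alone, against 2.79% in the control, and its log2 change between hypoxia and control was -0.83 (interval -1.54 to -0.17). The ratio of Psmb10 to Psmb7 was 5.04%, 4.88%, 6.18% and 5.81% in the same order, against 6.79% in the control, a change in hypoxia of -0.22 (-0.54 to 0.08). The ratio of Psmb8 to Psmb5 was 0.758%, 0.401%, 0.720% and 0.829%, against 1.21% in the control, a change in hypoxia of -0.55 (-1.72 to 0.53). A change of the ratios of Psmb10 and Psmb8 between hypoxia and control was thus not detectable at this depth. Against the control the Psmb9 ratio changed by -1.160 (-1.977 to -0.401) with In-Cl, -0.111 (-0.722 to 0.473) with DPN and 0.090 (-0.493 to 0.658) with E2. The Psmb10 ratio changed by -0.430 (-0.775 to -0.090), -0.478 (-0.824 to -0.153) and -0.135 (-0.456 to 0.169) in that order. For Psmb8 it was -0.679 (-1.959 to 0.482), -1.598 (-3.377 to -0.215) and -0.754 (-2.053 to 0.389). Because gene lengths were not used, a ratio can be followed between libraries but is not the share of immunoproteasomes.

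**Figure D2:**
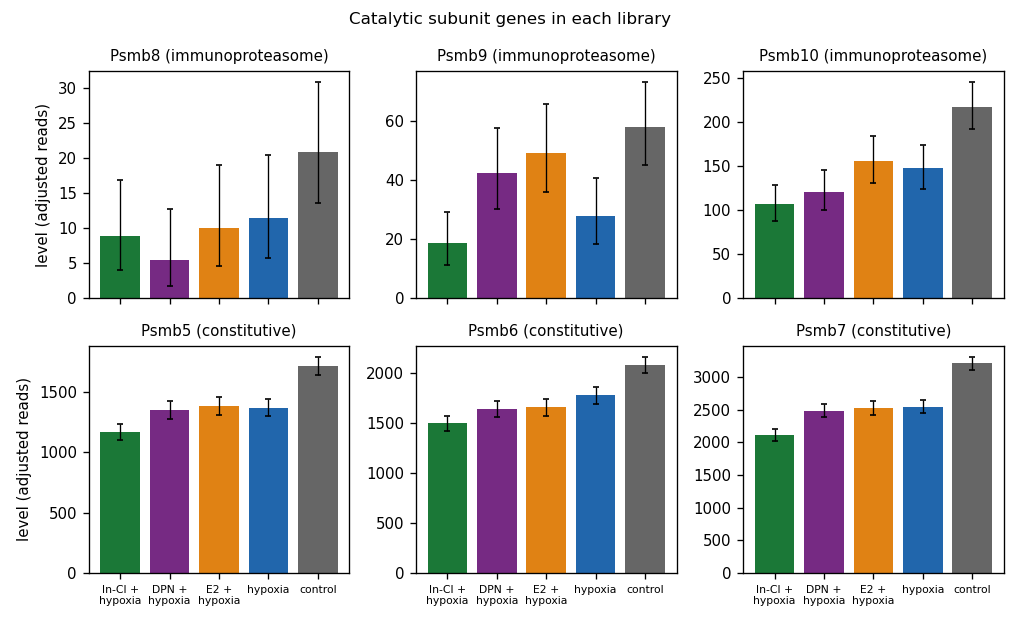
Level in adjusted reads, on linear axes from 0, of the immunoproteasome genes (upper row) and their constitutive counterparts (lower row) in each library; whiskers are exact 95% Poisson intervals for counting error. The control bar is the highest in every panel, and the In-Cl bar is the lowest in every panel except Psmb8, where DPN is lowest.

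Most regulatory particle genes were lower in hypoxia. In hypoxia 13 of its 17 genes were at least 1.2-fold lower than in the control and 0 were higher. Their median was -0.38 (interval over genes -0.43 to -0.28). For the core particle 5 of 13 were lower and 0 higher, with a median of -0.23. Of all rows tested 21.9% were lower and 15.7% higher. The 4 genes short of 1.2-fold were Psmc3, Psmc6, Psmd3 and Psmd11. Whether the particles differ from each other was not tested.

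Among the ATPases that unfold substrates, Psmc5 was the lowest and Psmc6 stood apart. Psmc5 had 1727, 1761, 1931 and 1919 adjusted reads with In-Cl, DPN, E2 and hypoxia alone, against 2797 in the control, and every hypoxic library lay below the control. Its difference in hypoxia was -0.54 (interval -0.63 to -0.46), or 1.46-fold lower. Psmc6 had 3351, 3420, 3267 and 3595, against 3417 in the control, so the hypoxic libraries lay on either side of the control. Its difference in hypoxia was 0.07 (0.01 to 0.14), and it was -0.07 when libraries were scaled to equal totals. Psmc3 had 2838, 2971, 2942 and 3303, against 3915 in the control, with its 3 compound libraries below hypoxia alone. Psmc1 had 2549, 2971, 2867 and 2932, against 4070 in the control (-0.47 in hypoxia), and Psmc2 and Psmc4 differed in hypoxia by -0.37 and -0.43. The 6 ATPase genes had a median of -0.40 in hypoxia and 4 passed 1.2-fold.

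Among the non-ATPase subunits, 9 of 11 were at least 1.2-fold lower in hypoxia than in the control, against 21.9% of all rows tested. Their median was -0.38. Psmd14 encodes the deubiquitinase that cuts ubiquitin chains off the substrate. It had 1497, 1770, 1702 and 1623 adjusted reads with In-Cl, DPN, E2 and hypoxia alone, against 2197 in the control, a difference in hypoxia of -0.44. Psmd4, a receptor for ubiquitin chains, had 1754, 1739, 2070 and 1950, against 2622 in the control, a difference in hypoxia of -0.43. Both genes were highest in the control, while In-Cl was lowest for Psmd14, and In-Cl and DPN were nearly level for Psmd4.

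The scaffold genes Psmd1 and Psmd2, which hold the base of the cap together, were also highest in the control. Psmd2 had 4678, 4466, 4560 and 4720 adjusted reads with In-Cl, DPN, E2 and hypoxia alone, against 6373 in the control, a difference in hypoxia of -0.43 (-0.49 to -0.38). Psmd1 had 3439, 3319, 3489 and 3560, against 4332 in the control, a difference in hypoxia of -0.28. Psmd7, the partner of Psmd14, had 2087, 2112, 2093 and 2105, against 2731 in the control, and its 4 hypoxic libraries were nearly level. The lid genes Psmd12 (-0.40), Psmd13 (-0.38), Psmd6 (-0.31) and Psmd8 (-0.31) also passed 1.2-fold in hypoxia, and Psmd11 (-0.15, interval -0.23 to -0.08) did not. Psmd3, a lid subunit too, went differently: it had 2159, 2214, 2208 and 2533, against 2655 in the control. Hypoxia alone was close to the control for Psmd3 (-0.07, interval -0.14 to 0.01), while the 3 compound libraries were below both.

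The activators are caps that open the core without ATP. Those of the interferon-inducible pair, Psme1 and Psme2, and the nuclear activator Psme3 were among the lowest of all members in hypoxia. Psme1 had 1040, 1030, 1034 and 1107 adjusted reads with In-Cl, DPN, E2 and hypoxia alone, against 1633 in the control, a difference in hypoxia of -0.56 (-0.67 to -0.45) or 1.47-fold lower. Psme2 had 808, 906.7, 901.6 and 966.4, against 1365 in the control, a difference in hypoxia of -0.50. Psme3 had 1840, 1850, 2044 and 1773, against 2606 in the control, a difference in hypoxia of -0.56 (-0.64 to -0.47). For all 3 genes every hypoxic library lay below the control.

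Psme4, a large nuclear activator linked to histone degradation, did not follow them. It had 3248, 2907, 2928 and 2579 adjusted reads with In-Cl, DPN, E2 and hypoxia alone, against 2620 in the control. Hypoxia alone was level with the control (-0.02, interval -0.10 to 0.05), and the 3 compound libraries were above both. Psmf1, which encodes a protein first described as an inhibitor of the core, had 788.1, 921.2, 859.5 and 901.6, against 883.1 in the control, with libraries on either side of the control and a difference in hypoxia of 0.03 (-0.10 to 0.16).

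The promoters of Psmb10, Psme2 and Psme4 are shown for contrast. Psmb10 and Psme2 hold the core letters of an interferon response element (GAAA, any 2 bases, GAAA), and Psme4 was higher with all 3 compounds than in hypoxia alone, each with an interval above 0. The windows are chr19:50743293-50743492 (minus strand), chr15:33052752-33052951 (minus strand) and chr14:108706443-108706642 (plus strand) in GRCr8, and capitals mark the same motifs as above.
Psmb10: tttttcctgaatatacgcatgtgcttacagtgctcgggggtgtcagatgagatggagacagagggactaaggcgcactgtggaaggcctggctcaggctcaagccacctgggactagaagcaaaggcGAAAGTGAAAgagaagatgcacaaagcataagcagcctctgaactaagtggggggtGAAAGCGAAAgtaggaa
Psme2: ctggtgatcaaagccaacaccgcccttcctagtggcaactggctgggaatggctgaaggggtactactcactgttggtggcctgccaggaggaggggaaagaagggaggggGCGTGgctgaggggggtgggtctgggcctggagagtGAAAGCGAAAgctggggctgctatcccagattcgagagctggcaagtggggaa
Psme4: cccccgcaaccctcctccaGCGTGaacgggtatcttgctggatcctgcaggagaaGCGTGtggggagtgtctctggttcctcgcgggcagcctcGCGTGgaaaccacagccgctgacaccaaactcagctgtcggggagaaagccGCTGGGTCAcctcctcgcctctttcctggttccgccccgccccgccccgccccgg
Psmb10 holds 2 such matches, at 73 to 64 and 17 to 8 bases before the gene start. In Psme4 the capitals near the 3' end are TGACNNNGC read on the opposite strand, and the others are GCGTG.

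Of the 4 assembly chaperone genes in the rows tested, which build the particles and leave them, Psmg2 passed 1.2-fold. In hypoxia Psmd5 (-0.23) and Psmd9 (-0.15) of the regulatory particle chaperones did not pass 1.2-fold, although their counting intervals lay below 0. Psmd10, outside the rows tested, had 91.9 adjusted reads in hypoxia and 110 in the control (-0.26, interval -0.66 to 0.14). Of the core particle chaperones Psmg2 had 386.2 in hypoxia and 502.2 in the control, a difference of -0.38, and Psmg1 differed by -0.11. Psmg4, outside the rows tested, had 265.3 in both libraries. It had 226.9 with In-Cl and 322.1 with DPN, the lowest and the highest of the 5 libraries.

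The tissue-restricted core genes were at trace levels. Psma8, known from testis in mice, had 45.4, 30.8, 30.9 and 31 adjusted reads with In-Cl, DPN, E2 and hypoxia alone, against 39.8 in the control, and every interval against the control included 0. Psmb11, a catalytic gene known from the thymic cortex in mice, had 95.7, 76.4, 66.2 and 111.4, against 61.8 in the control. Of the 47 genes it alone passed 1.2-fold upward in hypoxia, with a difference from the control of 0.84 (0.42 to 1.30). With it and the other 7 genes outside the rows tested counted, 27 of 47 were at least 1.2-fold lower in hypoxia, with a median of -0.31, beside 3355 of all 13397 detected rows.

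The other hypoxic libraries were set against the same control, so these comparisons share that library and are not independent. With In-Cl, 32 of 39 genes were at least 1.2-fold lower than in the control and 1 was higher, against 26.9% and 20.5% of all rows tested, with a median of -0.45. With DPN, 25 of 39 were lower and 0 higher, against 22.2% and 16.1%, with a median of -0.34. With E2, 25 were lower and 0 higher, against 22.7% and 17.0%, with a median of -0.31. The 1 gene higher with In-Cl was Psme4 (0.31). The median of the regulatory particle was -0.46 in the In-Cl library, -0.39 in the DPN library and -0.37 in the E2 library. That of the core particle was -0.38, -0.27 and -0.20 in the same order.

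The next comparisons ask what each compound added to hypoxia, with the hypoxia library shared by all. With In-Cl the proteasome genes were slightly but widely lower than in hypoxia alone, Psme4 and Psme3 excepted. The median over the 39 genes was -0.14 (interval over genes -0.19 to -0.10), beside -0.01 over all rows tested. Only 2 genes were at least 1.2-fold lower and 1 higher, against 9.20% and 11.1% of all rows, so the counts past 1.2-fold show no excess. At 1.5-fold 0 were lower and 0 higher, against 0.194% and 1.22%. By direction, 37 of 39 lay below 0, against 52.7% of all rows, and the counting interval was wholly below 0 for 27, against 29.2%. The core particle had a median of -0.17 with 12 of 13 intervals below 0, and the regulatory particle a median of -0.12 with 11 of 17. The median depended on the scaling: with equal totals it was -0.07, 0 genes were 1.2-fold lower, and the median over all rows was 0.06.

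The lowest genes with In-Cl were Psmb2, Psmb7 and Psme2. Psmb2, a structural beta subunit, had 1763 adjusted reads with In-Cl and 2202 in hypoxia, a difference of -0.32 (-0.41 to -0.23), beside 1829 with DPN, 2116 with E2 and 2305 in the control. Psmb7 differed by -0.27 (-0.35 to -0.18) and Psme2 by -0.26 (-0.39 to -0.12). The highest was Psme4, at 0.33 (0.26 to 0.41) or 1.26-fold higher. It was followed by Psme3 (0.05, -0.04 to 0.15) and Psmd7 (-0.01, -0.10 to 0.08), whose intervals included 0. Of the immunoproteasome genes Psmb10 was lower with In-Cl than in hypoxia, by -0.47 (-0.84 to -0.10), while the intervals of Psmb8 and Psmb9 included 0. Over all 47 genes 5 were at least 1.2-fold lower and 2 higher with In-Cl, against 16.8% and 20.1% of all detected rows.

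With DPN the proteasome genes were close to hypoxia alone. The median was -0.04 (-0.09 to -0.02), beside 0.00 over all rows tested, and 1 gene was at least 1.2-fold lower and 0 higher, against 2.84% and 3.45% of all rows. At 1.5-fold 0 were lower, against 0.179%. Below 0 lay 28 of 39, against 49.9% of all rows, with the counting interval wholly below 0 for 13, against 17.3%. The gene past 1.2-fold was Psmb2, at -0.27 (-0.36 to -0.17). Next to it were Psmd3, at -0.19 (-0.28 to -0.11), and Psmd4, at -0.17 (-0.26 to -0.07). The highest were Psme4 (0.17, interval 0.09 to 0.25), Psmd14 (0.12, interval 0.03 to 0.23) and Psme3 (0.06, interval -0.04 to 0.16). Over all 47 genes 4 were at least 1.2-fold lower and 2 higher, against 14.5% and 13.7% of all detected rows. Those added outside the rows tested were Psmb8, Psmb10 and Psmb11 (-0.54) on the lower side, and Psmb9 and Psmg4 (0.28, 0.03 to 0.52) on the higher side. With equal totals the median was 0.005, beside 0.042 over all rows tested, so its sign rests on the scaling.

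With E2 the median was -0.01 (-0.06 to 0.01), and 0 genes were 1.2-fold lower or higher, against 2.72% and 4.70% of all rows. Below 0 lay 23 of 39, against 49.9% of all rows, with the counting interval wholly below 0 for 4, against 17.9%. The lowest were Psmd3 (-0.20, interval -0.28 to -0.11), Psmc3 (-0.17, -0.24 to -0.09) and Psmc6 (-0.14, -0.21 to -0.07). The highest were Psme3 (0.20, 0.11 to 0.30), Psme4 (0.18, 0.10 to 0.26) and Psmd4 (0.09, -0.01 to 0.18). The ratio of Psmb9 to Psmb6 was higher with E2 than in hypoxia, by 0.92 (0.20 to 1.68), and Psmb9 itself by 0.79 (0.10 to 1.57). Over all 47 genes 1 was at least 1.2-fold lower, Psmb11 (-0.74, -1.24 to -0.29), and 2 were higher, Psmb9 and Psma3 (0.27, -0.16 to 0.71), against 14.6% and 14.2% of all detected rows. With equal totals the median over the 39 genes was 0.04, beside 0.048 over all rows tested. E2 was given at 10 nM and the other compounds at 0.1 µM, so no comparison is made between them.

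**Figure D3:**
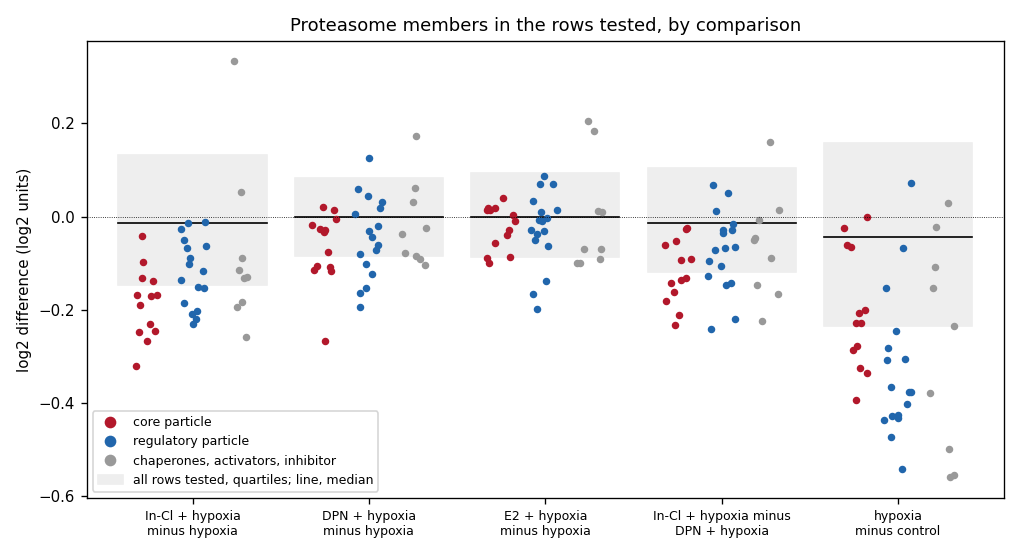
Log2 differences of the 39 proteasome genes in the rows tested, 1 dot per gene, for the 5 comparisons; grey boxes are the quartiles and black lines the medians of all 6699 rows tested. Core and regulatory particle dots sit below the median line in hypoxia minus control, except Psmb1, Psmb4 and Psmc6, and, less far, in In-Cl minus hypoxia, except Psmd2 and Psmd7. With DPN and E2 they lie on both sides of it.

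In-Cl and DPN were given at the same dose and make the 1 pair of compounds compared. Here 0 genes were at least 1.2-fold lower or higher, against 4.25% and 7.34% of all rows tested. The median over the 39 genes was -0.09 with In-Cl relative to DPN (interval over genes -0.14 to -0.05), beside -0.01 over all rows, and 34 of 39 lay below 0, against 53.3%. The counting interval lay wholly below 0 for 18 genes, against 24.5% of all rows. The core particle had a median of -0.13 and the regulatory particle of -0.07. The lowest were Psmd14 (-0.24, -0.34 to -0.14), Psmb7 (-0.23, -0.32 to -0.15) and Psmf1 (-0.23, -0.36 to -0.09). The highest were Psme4 (0.16, 0.09 to 0.23), Psmd2 (0.07, 0.01 to 0.13) and Psmd1 (0.05, -0.02 to 0.12). Psmb9 was lower with In-Cl, at 18.7 adjusted reads against 42.4 with DPN, a difference of -1.14 (-2.04 to -0.35). The ratio of Psmb9 to Psmb6 was lower too, by -1.05 (-1.92 to -0.21). Psmg4 was lower with In-Cl than with DPN by -0.50 (-0.76 to -0.25), and over all 47 genes these 2 were at least 1.2-fold lower and 3 were higher, against 13.3% and 18.0% of all detected rows. The 3 were Psma8, Psmb8 and Psmb11, whose counting intervals included 0.

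Promoters of 42 of the 47 genes were searched over the 250 bases before the gene start, on both strands, in RefSeq's GRCr8 table, and Psma7, Psmb11, Psmd6, Psmd12 and Psmd14 were not matched. TGACNNNGC was held by 7 of the 42 (16.7%), against 10.1% of all 33469 promoters and 13% of those of the rows tested. These were Psma3, Psmb2, Psmb5, Psmb6, Psmd1, Psmd9 and Psme4. The interferon response core was held by 5 (11.9%), Psma4, Psmb3, Psmb10, Psmd7 and Psme2, against 3.41% of all and 2.37% of the rows tested. CCAAT, the letters bound by the Nfy factors, was held by 19 (45.2%), against 34% and 36.2%. The cores of the hypoxia response element were held by 9 (ACGTG, 21.4%, against 16.6% and 24.6%) and by 21 (GCGTG, 50%, against 25.9% and 48.6%). CACGTG counts as ACGTG on both strands.

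Other genes of the pathway gave mixed differences in hypoxia. Among 9 further proteasome factors in the rows tested, 3 were at least 1.2-fold lower and 1 higher, with a median of -0.17. These were 33.3% and 11.1% of the list, against 21.9% and 15.7% of all rows tested. Pomp, the chaperone that matures the core particle, had 4453, 5322, 4793 and 5479 adjusted reads with In-Cl, DPN, E2 and hypoxia alone, against 7403 in the control, a difference in hypoxia of -0.43 (-0.48 to -0.39). Uchl5, a deubiquitinase of the cap, was the lowest, at 325.3 in hypoxia and 528.7 in the control (-0.70). Zfand2a, a stress-inducible proteasome partner, was the highest, at 536.8 in hypoxia and 400.4 in the control (0.42).

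Of 13 detected genes listed as regulators of the proteasome genes, 2 were at least 1.2-fold lower and 2 higher, with a median of -0.01. Both shares are below those of all 13397 detected rows, of which 3355 were lower and 3404 higher. Nfe2l1 has no row in the tables. Nfe2l2, its relative in the oxidant response, had 2737, 2834, 2758 and 2842 adjusted reads with In-Cl, DPN, E2 and hypoxia alone, against 2966 in the control (-0.06 in hypoxia, interval -0.13 to 0.01). Maff, a small partner of both factors, was the highest, at 354.1 in hypoxia and 138.5 in the control (1.35). Vcp, the segregase that extracts ubiquitin-tagged proteins, was the lowest, at 9435 in hypoxia and 13188 in the control (-0.48).

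The ubiquitin supply and shuttle genes were nearly balanced, with 3 of 18 at least 1.2-fold lower, 2 higher and a median of 0.04. Their shares, 16.7% lower and 11.1% higher, are below those of all rows tested, 21.9% and 15.7%. Uba1, the main ubiquitin-activating enzyme, was the lowest, at 4135 in hypoxia and 5740 in the control (-0.47). Sqstm1, a shuttle to autophagy, was the highest, at 6194 in hypoxia and 5056 in the control (0.29). A list of 9 detected genes held hypoxia-inducible factor alpha subunits and their degradation partners. The alpha subunit genes were at least 1.2-fold lower, Hif1a at 1346 in hypoxia and 1644 in the control (-0.29, interval -0.39 to -0.19), and Epas1 at 2.11 in hypoxia and 3.22 in the control, too few to show a difference. Of the partners 0 were lower, and Egln3 (5.12) and Vhl, the ligase's substrate receptor (0.31), were higher. Over the list, 2 of 9 genes were lower and 2 higher, shares near those of all 13397 detected rows. Of those rows 3355 were lower and 3404 higher.

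Of 15 detected antigen presentation genes, which use the immunoproteasome's products, 5 were at least 1.2-fold lower and 4 higher in hypoxia. These shares are near those of all 13397 detected rows, of which 3355 were lower and 3404 higher. Tap1 and Tap2, which carry peptides into the endoplasmic reticulum, were lower. Tap1 had 140, 170.7, 160.6 and 166.3 adjusted reads with In-Cl, DPN, E2 and hypoxia alone, against 237.7 in the control (-0.51 in hypoxia, interval -0.81 to -0.24). Tap2 had 91.7, 99.8, 101.3 and 111.5, against 172.3 in the control (-0.62, -0.98 to -0.28). Irf1, an interferon-response factor, had 142.1, 106.1, 107.8 and 96.1, against 143.7 in the control (-0.57 in hypoxia, interval -0.96 to -0.21). With In-Cl it was level with the control (-0.02, -0.35 to 0.31) and higher than in hypoxia by 0.56 (0.18 to 0.96). B2m, the light chain of class I molecules, differed by -0.05. Tapbp was the lowest of the list (-0.88), and the class I heavy chain gene RT1-A2 the highest (0.95), a member of a multigene family whose reads the counting could split.

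Large protein complexes outside the proteasome differed in both directions. The cytosolic chaperonin, a folding machine, had 4 of 8 genes at least 1.2-fold lower in hypoxia and a median of -0.26, from Cct6a (-0.36) to Cct2 (-0.15). The 95 cytosolic ribosomal protein rows had 0 lower, 29 higher and a median of 0.21 in hypoxia against the control. Of all rows tested 21.9% were lower and 15.7% higher in that comparison. With In-Cl against hypoxia the ribosomal protein rows had a median of -0.26, beside -0.14 for the proteasome genes. Of these rows 41 were at least 1.2-fold lower and 0 higher, against 9.20% and 11.1% of all rows tested. The chaperonin genes had a median of -0.08 in that comparison.

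**Figure D4:**
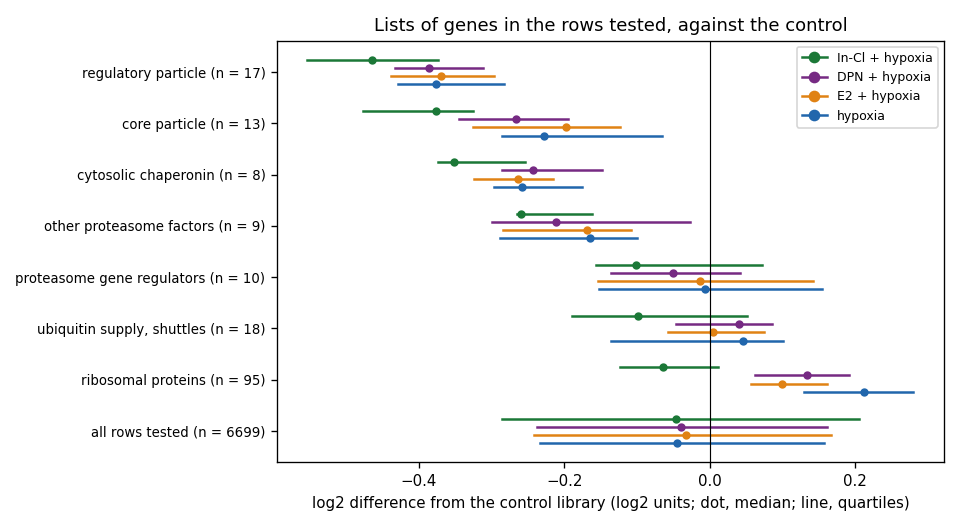
Medians (dots) and quartiles (lines) of log2 differences from the control library for 7 gene lists and for all 6699 rows tested, in the In-Cl, DPN, E2 and hypoxia libraries. The regulatory and core particles and the chaperonin lie left of all rows tested in each library, while the ribosomal protein rows lie right of them except with In-Cl.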

How the data were processed

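Trizol was used to extract RNA from rat vascular smooth muscle cells, and 5 libraries were built with the SMARTer Stranded kit, per the labels' protocols. The authors deposited 1 table per library of log2 values for 17048 gene symbols, which equal log2 of a linear value plus 1. The aligner TopHat, edgeR and the build rn6 were used per the submitters' processing notes. The counter, annotation and strand setting, and each tool's version, were not given in the sources used here. Without a known strand setting, overlapping and antisense genes cannot be told apart.

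Low linear values came in equal steps, taken as the worth of 1 read. A step was fitted to values up to 2.5 reads, and 89% of low values in the control, 99.1% with E2 and 100% in the other libraries lay within 0.2 read of a whole number. Approximate reads, used for intervals only, are less exact in the control. Differences of log2 values, medians with order-statistic intervals and counts past 1.2-fold were computed with Python 3.11.15, numpy 2.4.6, pandas 2.3.3 and scipy 1.17.1. The interval script was tested on simulated data. No count model was fitted.

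The members, gene lists and the rule for named genes were chosen with earlier results of these data known. That rule takes the catalytic and immunoproteasome genes, the 3 highest and 3 lowest members of each comparison, the highest and lowest gene of each other list in hypoxia against control, and Nfe2l1, Nfe2l2, Pomp, Tap1, Tap2, B2m and Irf1, and 1 gene not reported here. Other genes named, such as those behind a small count, were chosen after their values were seen. Alternatives changed the scaling, the pseudocount, the filter, the fold and the hypoxic library. Planned protein identities and levels per length were not made, since no protein sequences or lengths were used here.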

Additional observations from a re-analysis of the deposited data

How the results depend on the processing

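No paired analysis was possible because each condition has 1 library. Of 169 alternative values of the medians, counts and ratios, 148 stayed close to the reported value, 21 moved and 0 reversed a called value. Of 440 for single genes, 417 stayed close and 23 moved, 22 of them with equal totals. Centring on the median, quantile normalization (except for Psmd2, -0.50 in hypoxia against control), a pseudocount of 10, the upper 25% of rows, summing rows of 1 symbol, the DPN or E2 library in place of hypoxia, and the Psma3l row in place of Psma3 (added after seeing the data) moved none of the others. Libraries scaled to equal totals moved the median to -0.43 for hypoxia against control, -0.07 for In-Cl against hypoxia, 0.005 for DPN against hypoxia and 0.038 for E2 against hypoxia, and left 0 genes lower for In-Cl and 0 for DPN. The DPN and E2 medians, and the difference of Psmc6 in hypoxia against control, thus changed sign, although none of them was past 1.2-fold. With In-Cl in place of hypoxia against the control the median was -0.446 and 1 gene was higher. At 1.5-fold, 0 of the 39 genes were lower in hypoxia against control, where 3.39% of all rows tested were. With In-Cl against hypoxia 0 were lower and 0 higher, against 0.194% and 1.22%, and with DPN 0 were lower, against 0.179%. Outside the rows tested, Psmb8 and Psmb9 were 1.5-fold lower in hypoxia against control, and Psmb8 with DPN against hypoxia, all at low counts. Over all 47 genes at 1.2-fold, 1 was higher in hypoxia against control. Against hypoxia 2 were then higher and 5 lower with In-Cl, 2 higher and 4 lower with DPN, and 2 higher and 1 lower with E2, and against DPN 3 were higher and 2 lower with In-Cl. These additions are genes outside the rows tested, most of them at low counts. Psmg4 held the most, at 230 to 319 approximate reads in a library. One library per condition leaves the spread between cultures unknown, and depth limits Psmb8, Psmb9 and Psma8.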
